A study of Trichoderma reesei QM6a with 24 samples.

Results

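A set of 94 gene models of the filamentous fungus *Trichoderma reesei* stood high in the wild type in 1 of 4 culture conditions, constant darkness with added methionine. They were chosen by their levels in the 12 wild type libraries. Levels are in CPM, the counts of a model scaled to a common library total, and each group mean had 0.5 CPM added. A model was taken where its mean in darkness with methionine was at least 10 CPM and at least 4 times the mean in darkness without methionine, in light without methionine and in light with methionine. This rule found 94 of the 10879 models in the count table, or 0.864%. The wild type values therefore describe the set and test nothing about it, and the 12 libraries of the mutant, which the rule did not use, carry the tests. These are not fully independent of the choice. In darkness with methionine, mutant and wild type libraries with the same replicate number deviated together, as given below. Scaling and spread were also estimated over all 24 libraries.

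RNA came from mycelium of the deletion mutant QM6aΔ72004 and of the wild type strain QM6a, both on cellulose in minimal medium at 28 °C. For each genotype there were 4 groups of 3 libraries: constant darkness with 5 mM L-methionine, constant darkness without it, constant light without it, and constant light with 5 mM L-methionine. The growth protocol states 96 h and the sample labels 72 h, which the sources used here do not settle. The labels leave unsaid whether the 3 libraries of a group are separate cultures and how many clones stand for the mutant, so p-values measure the spread between these libraries, which may be technical. The title of the series asks how a G-protein coupled receptor takes part in the response to methionine.

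Library totals ran from 13210988 to 21224989 counts. The model linked to locus tag TRIREDRAFT_72004, TrE0303W, had 0 counts in each mutant library and 86 to 579 counts in each wild type library. A second model, TrC0447C, had likewise 0 counts in each mutant library, against 211 to 797 in each wild type library. Replicate 3 of the wild type in light stood apart, with a mean correlation of 0.981 with its group mates on the log2 CPM scale, against 0.987 to 0.993 for the other libraries. Without that library the rule found 101 models, including all 94. Dark and light libraries are numbered in distinct series, so in any comparison of light with darkness an effect of lighting and one of the batch cannot be told apart.

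Methionine is a sulfur amino acid and the precursor of S-adenosylmethionine, the methyl donor of the cell, and fungi can draw on it as a source of sulfur. Filamentous fungi sense blue light with the White Collar type photoreceptors, called BLR1 and BLR2 in *T. reesei*, and in this species light acts on cellulase genes and on secondary metabolism. G-protein coupled receptors pass signals from outside the cell to heterotrimeric G-proteins and to protein kinase A. Of the 94 models, 55 could be linked to a RefSeq locus tag (assembly GCF_000167675.1, v2.0) by span and gene order. None of these carries a gene symbol in that table, which holds no product names, so no function is given for any member.

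In darkness with methionine the members had a median of 36.3 CPM in the mutant and 34.8 CPM in the wild type. In the mutant their medians in the other groups were 1.81 CPM in darkness, 0.202 in light and 3.02 in light with methionine. In the wild type these were 1.81, 0.261 and 2.64 CPM in the same order. Light without methionine was the lowest state: 73 of the 94 members stood under 1 CPM there in the mutant and 68 in the wild type, and 12 and 16 of them had no count in it. Together the members took 1.98 ± 0.205% of all counts in darkness with methionine in the mutant and 2.17 ± 0.273% in the wild type (SD, n = 3). TrF0363W alone made up much of this: without it the shares were 1.20 ± 0.139% in the mutant and 1.30 ± 0.259% in the wild type. Their share was 0.0377 ± 0.0214% in light in the mutant and 0.0645 ± 0.0354% in the wild type, and without TrF0363W 0.0135 ± 0.00259% and 0.0218 ± 0.0108% in the same order. In bulk RNA, fewer cells that transcribe a gene and less of its RNA per cell cannot be told apart.

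**Figure D1:**
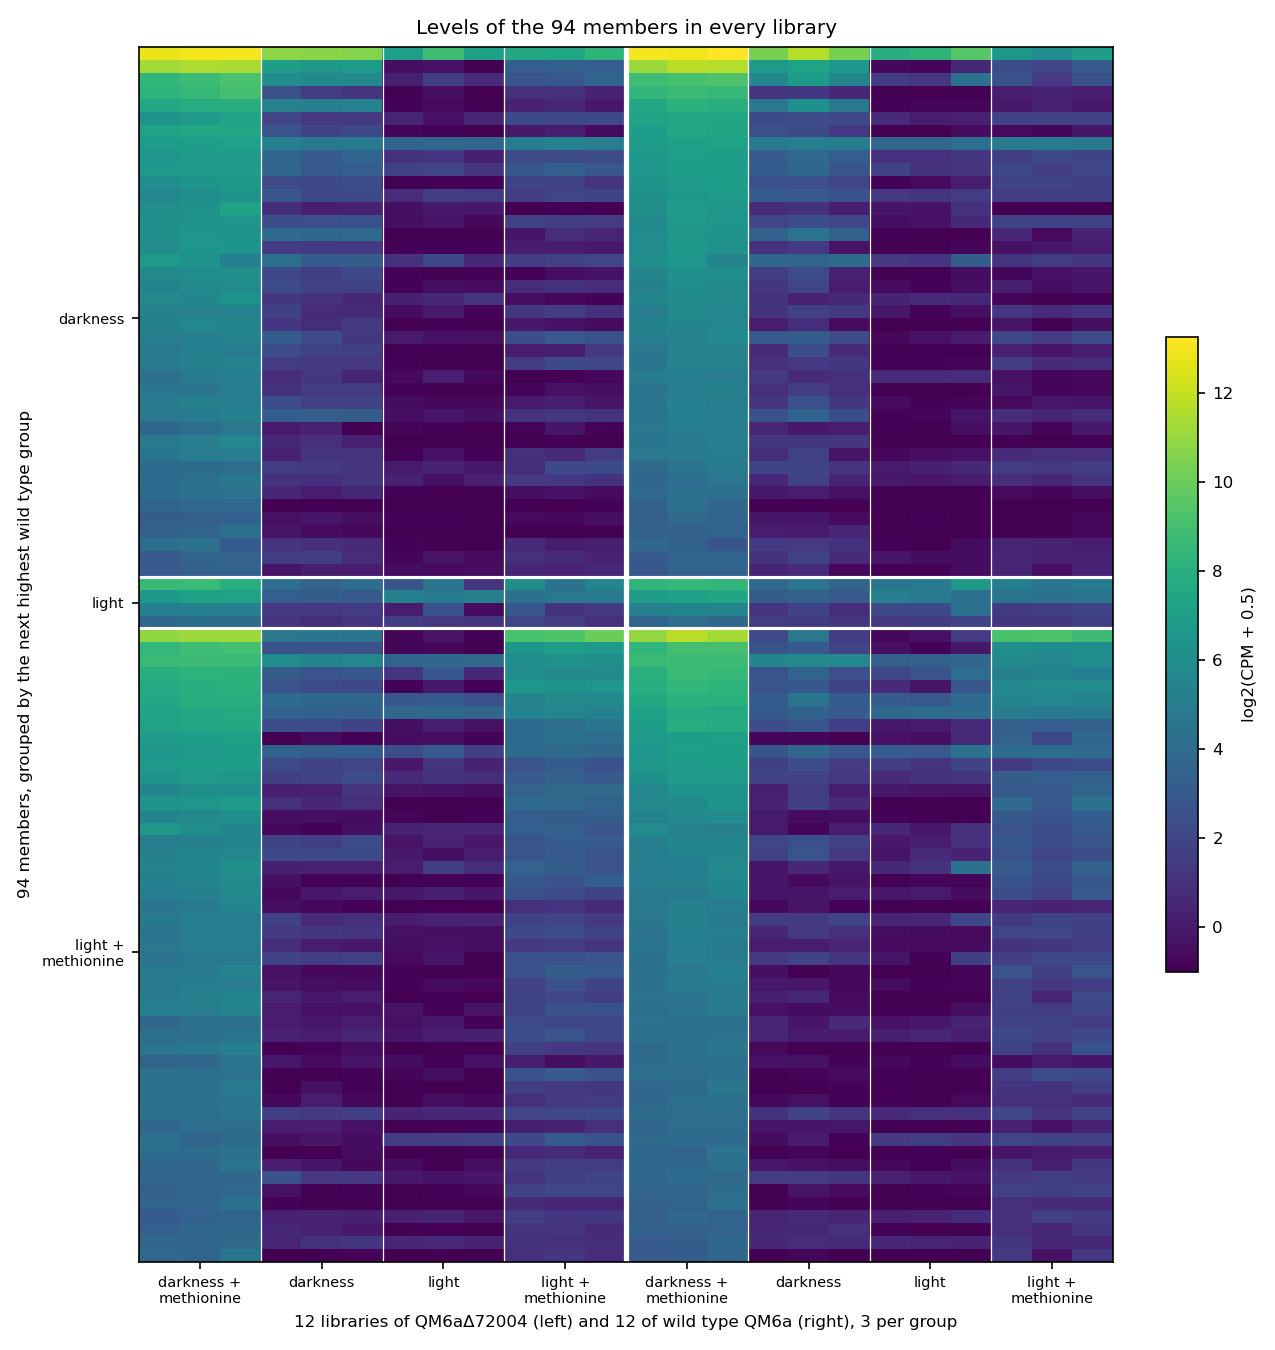
Each row is 1 of the 94 members and each column 1 of 24 libraries, with colour for log2(CPM + 0.5); the 12 mutant libraries are left of the 12 wild type libraries, and rows are grouped by the wild type condition that came next after darkness with methionine. The 3 libraries of darkness with methionine are the brightest columns of either genotype in all 94 rows, and 73 members in the mutant lie under 1 CPM in light.

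In the mutant every member had its highest mean in darkness with methionine. Counts were tested over 9308 models with edgeR's quasi-likelihood test and Benjamini-Hochberg adjustment. The filter on low counts used all 24 libraries. All 94 members also passed it on the wild type libraries alone. That follows from the level the rule asked for in darkness with methionine, so it is no check of the filter. In the mutant 94 of 94 were higher in darkness with methionine than in darkness at an adjusted p under 0.05, where 39.6% of all tested models were. The same 94 were higher than in light with methionine, against 21.7% of all models, and higher than in light, against 38.7%. These contrasts share the 3 mutant libraries of darkness with methionine. All 3 contrasts were passed together by 9.41% of the tested models. In the mutant the lowest of the 3 libraries in darkness with methionine was above the highest of the 9 others for 94 of 94 members, which 11.7% of all models also showed.

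The median log2 fold change of the members in the mutant was 4.39 against darkness (1.43 to 10.74), where that of all tested models was 0.03. It was 3.41 against light with methionine (1.35 to 13.64) and 7.29 against light (1.68 to 13.69), with 0.01 for all models in both. At least 4-fold and past the threshold, higher calls numbered 89 against darkness (13.4% of all models), 87 against light with methionine (4.27%) and 93 against light (13.8%). Applied to the mutant means, the choosing rule itself took 101 models, or 0.928% of the table. Of these 83 were members, which is 88.3% of the set, and 18 were not, which is 0.167% of the 10785 other models.

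The member with the most counts was TrF0363W (unitig_5_consensus 1270356 to 1272566, plus strand, 3 exons, coding length 2013). It had 7233, 7801 and 8642 CPM in the mutant in darkness with methionine, against 1728, 1708 and 1575 in darkness, 131, 459 and 135 in light, and 196, 189 and 306 in light with methionine. In the wild type it had 8487, 8014 and 9823 CPM in darkness with methionine, against 1301, 3320 and 1282 in darkness, 256, 315 and 711 in light and 97.2, 60.5 and 123 in light with methionine. The libraries of darkness with methionine were above all others of their genotype, and 1 library stood out upwards in wild type darkness, wild type light and mutant light. In the mutant it was higher by a log2 fold change of 1.98 against darkness (SE 0.46, edgeR adjusted p = 0.000631) and 5.09 against light with methionine (SE 0.53, adjusted p = 1.76e-07).

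TrD1347W, a short model of 1 exon (unitig_3_consensus 4211366 to 4211749, plus strand, coding length 384), was the highest per length. In darkness with methionine it reached 7268 CPM per kb of coding length in the mutant and 7822 in the wild type, where TrF0363W had 3921 and 4359. Its libraries in the mutant held 2502, 3048 and 2822 CPM in darkness with methionine, against 123, 93.9 and 108 in darkness, 0.24, 0.30 and 0 in light, and 8.95, 10.4 and 9.22 in light with methionine. Here the 4 groups of the mutant did not overlap, and darkness without methionine came next. The difference in the mutant was 4.43 against darkness (SE 0.32, edgeR adjusted p = 1.08e-10) and 8.19 against light with methionine (SE 0.39, adjusted p = 1.37e-12), in log2 fold change.

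TrA2098C (unitig_0_consensus 6677604 to 6679560, minus strand, 5 exons, coding length 1695) kept a high level in light when methionine was present. The mutant libraries had 1869, 2346 and 2338 CPM in darkness with methionine, against 25, 24.2 and 21.9 in darkness, 0.10, 0.36 and 0 in light, and 572, 635 and 1053 in light with methionine. Darkness with methionine was above light with methionine in every library, yet the call is weak: the log2 fold change was 1.52 (SE 0.54, edgeR adjusted p = 0.0296). It was lost without replicate 2 or 3 of the mutant in darkness with methionine (1.47 and 1.48), without replicate 1 or 2 of the mutant in light with methionine (1.35 and 1.40), and with DESeq2 (1.53). Against darkness the difference was 6.26 (SE 0.67).

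TrG0976W (unitig_6_consensus 3192886 to 3193871, coding length 924) had the same order at a lower level. It averaged 445 ± 85.4 CPM in the mutant in darkness with methionine, against 5.55 ± 0.198 in darkness, 0.0714 ± 0.0629 in light and, under light plus methionine, 108 ± 19.1 (SD of 3 libraries). The wild type had 459 ± 109 CPM, against 5.52 ± 2.44, 0.258 ± 0.203 and 64.3 ± 2.86 in the same order. TrB0102W (unitig_1_consensus 316703 to 317735, coding length 966) went the other way round, with darkness next: 443 ± 118 CPM in the mutant in darkness with methionine, against 57.1 ± 4.72 in darkness, 1.52 ± 1.03 in light and 8.26 ± 3.22 in light with methionine.

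Of the remaining 3 of the 8 most abundant, TrG0504W (TRIREDRAFT_65315) had the smallest ratio of highest to lowest mean in the mutant among the 8. Its mutant means were 414 ± 30 CPM in darkness with methionine, against 51.5 ± 8.56 in darkness, 13.2 ± 1.62 in light and 69.0 ± 9.43 in light with methionine. TrB0934W (TRIREDRAFT_60810) had 278 ± 28.5 CPM, against 7.14 ± 1.27, 3.24 ± 3.21 and 56.4 ± 4.09 in the same order. TrF0383C (TRIREDRAFT_103134) had 398 ± 128 CPM, against 3.08 ± 1.87, 0.079 ± 0.137 and 1.28 ± 0.418. With these the 8 most abundant members showed each kind of second place except light.

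**Figure D2:**
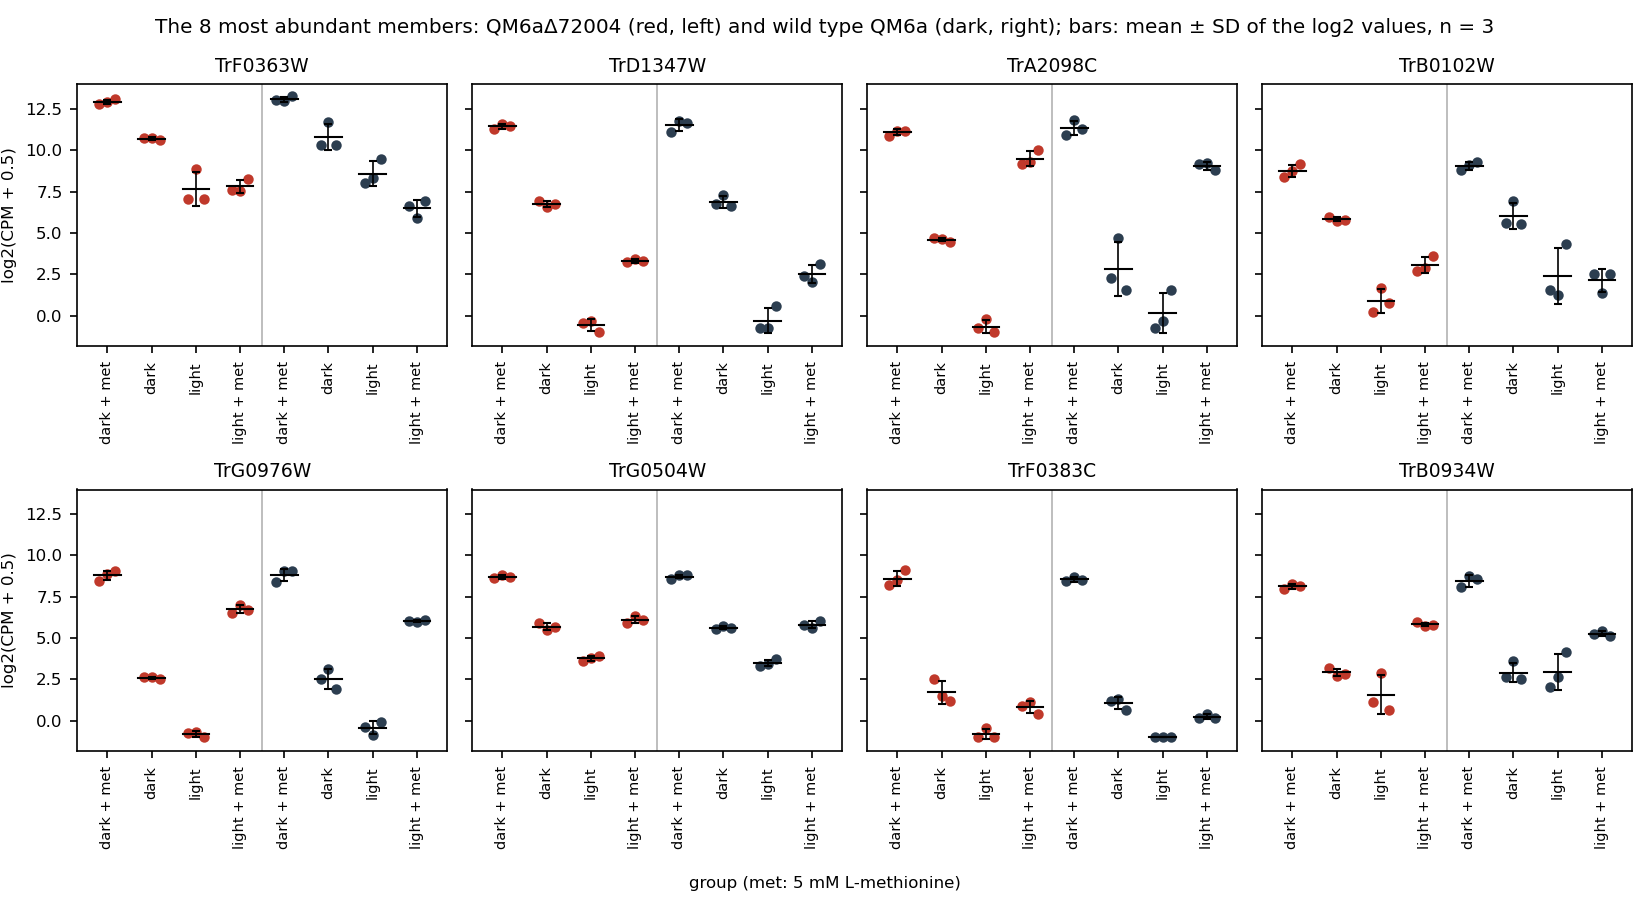
Each panel shows 1 of the 8 most abundant members, with log2(CPM + 0.5) per library on the y axis and the 8 groups on the x axis, mutant (red) left of wild type (dark); bars are means ± SD of the log2 values, n = 3. In all 8 panels the libraries of darkness with methionine are the highest of their genotype, and TrA2098C comes closest to being matched in light with methionine, with 572 to 1053 CPM in the mutant.

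The sharpest contrast in the mutant was that of TrF0383C, whose mean in darkness with methionine, with 0.5 CPM added to each mean, was 111 times that of the next group, and 178 times in the wild type. TrF0388W followed with 70.3 in the mutant and TrC0445W with 36.4. TrC0445W (unitig_2_consensus 1480265 to 1482481, 4 exons, coding length 1764) had 153, 192 and 181 CPM in the mutant in darkness with methionine, against 5.79, 3.21 and 3.99 in darkness and at most 0.639 in any light library. It lies 2 places from TrC0447C, the second model without counts in the mutant, with 4.77 kb between them. Its level in darkness with methionine was 175 ± 20.1 CPM in the mutant and 163 ± 38.1 in the wild type.

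TrE0017C (unitig_4_consensus 46880 to 48766, 5 exons) had 80.3 ± 15.5 CPM in the mutant in darkness with methionine and 2.22 ± 0.105 in darkness, with 3 counts over all of light. Its ratio to light was 1498 with a 95% counting interval of 512 to 7266, which covers counting error only. TrF0193C (TRIREDRAFT_109344, unitig_5_consensus 629391 to 630531, 3 exons, coding length 840) was the member most nearly silent elsewhere. The mutant had 737 counts in darkness with methionine (13.2 ± 1.5 CPM), 0 in darkness, 0 in light and 1 in light with methionine. It was thus at least 231.1-fold higher than in darkness and at least 246-fold higher than in light, set against 3 counts over the group. The wild type had 13.6 ± 3.9 CPM in darkness with methionine and no count in its 9 other libraries.

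Neighbouring members formed 7 runs that hold 18 of the 94, with at most 2 other models between members. The longest has 5 members among 7 models, from TrF0383C to TrF0389C (unitig_5_consensus 1320453 to 1332655, 12.2 kb). In the mutant in darkness with methionine TrF0384W had 32.5 ± 10.7 CPM, TrF0387C 58.9 ± 17.8, TrF0388W 99.2 ± 46.6 and TrF0389C 15.6 ± 5.37 CPM, beside the 398 of TrF0383C. Outside that condition none of the 5 exceeded a mean of 3.08 CPM in the mutant. TrF0388W had 0 counts in light with methionine and was at least 1941-fold higher in darkness with methionine.

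No other model of that stretch met the rule. TrF0386W, inside the run, had 181 CPM in the mutant in darkness with methionine, against 136 in darkness, 170 in light and 187 in light with methionine. TrF0385W, a model of coding length 126, was at or under 0.0352 CPM in every mutant group. TrF0390W, just past the run, was also highest in darkness with methionine, by less: it had 83.7 CPM, against 21.6, 33.5 and 36.4 in the same order. TrF0382C, on the other side, was at 0 CPM in darkness with methionine and 0.111 in darkness.

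**Figure D3:**
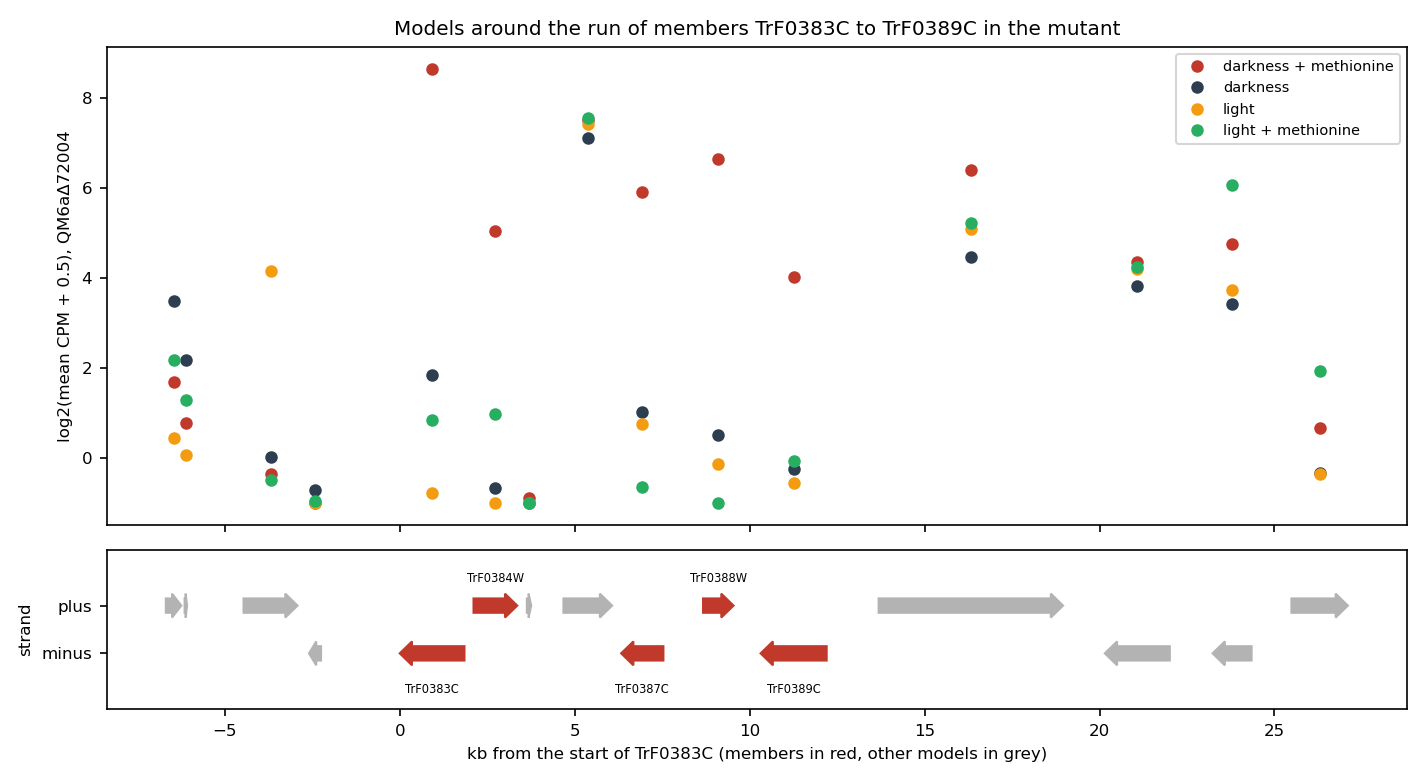
The upper panel gives the mutant mean of each model as log2(CPM + 0.5) on the y axis against the distance in kb from the start of TrF0383C on the x axis, with a colour for each of the 4 conditions; the lower panel draws the models on their strands, members in red. Each of the 5 members has its highest mean in darkness with methionine (15.6 to 398 CPM) and at most 3.08 CPM in the other conditions, while TrF0386W between them lies at 136 to 187 CPM in all 4 conditions.

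The second run is TrE0210W, TrE0211W and TrE0212W, 3 adjacent models on the plus strand (unitig_4_consensus 655887 to 658585, 2.70 kb). They had 32.9 ± 7.83, 54.3 ± 13 and 44.9 ± 6.77 CPM in the mutant in darkness with methionine. In light with methionine these 3 held 7.13 ± 1.89, 9.20 ± 0.543 and 7.38 ± 1.61 CPM, and their means in darkness and in light were at most 0.21. Their log2 fold changes against darkness in the mutant were 7.26, 7.70 and 8.06, and against light with methionine 2.2, 2.55 and 2.59.

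TrD0975C (TRIREDRAFT_76601) and TrD0976W (TRIREDRAFT_58472) stand head to head, 740 bases apart (unitig_3_consensus 3077436 to 3081710). This pair kept a level in darkness. TrD0975C had 219 ± 30.2 CPM in the mutant in darkness with methionine, against 38.7 ± 0.615 in darkness, 0.0752 ± 0.0920 in light and 0.780 ± 0.297 in light with methionine, and TrD0976W had 78.2 ± 9.08, against 14.1 ± 1.20, 0 and 0.865 ± 0.478. The ratio of darkness with methionine to the next group was 5.6 and 5.39 for these 2 in the mutant, and 5.71 and 5.52 in the wild type.

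TrD1406C (TRIREDRAFT_112147) and TrD1407W are also head to head, 749 bases apart (unitig_3_consensus 4442608 to 4448064). TrD1407W, a model of 11 exons and coding length 2370, had 82.9, 102 and 160.0 CPM in the mutant in darkness with methionine, against 159, 181 and 191 in the wild type in the same condition. TrD1406C had 12.4, 16.8 and 25.2 CPM in the mutant and 24.9, 31.0 and 33.3 in the wild type. For both models the highest mutant library lay just above the lowest wild type library, and the difference was not tested, since the wild type values chose the members. Over all 9 pairs of members with no model between them, 5 pointed away from each other, 1 towards each other and 3 the same way. Of all 10871 such pairs of models 29.1% pointed away from each other.

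How methionine and lighting combine was tested in the mutant as an interaction, the log2 response to methionine in darkness minus that in light. It was positive past the edgeR threshold for 35 of 94 members, against 23.3% of all tested models, and negative for 5, against 22.4%. The other 54 did not pass. Negative calls were 10 with the 12 mutant libraries fitted alone and 9 with DESeq2. In 30 members the mutant had 3 counts or fewer in all of light, so that the response to methionine in light is poorly measured. Among these 0 were positive, 2 negative and 28 did not pass, while of the other 64 members 35 were positive, 3 negative and 26 did not pass. These counts come from the test named above, and its misses do not show that the responses were equal. The shares over all models with as few or as many counts in light were not taken. The split by counts is therefore no result about the members.

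In the longest run 3 of the 5 members had a positive interaction. For TrF0387C the response to methionine was 5.00 in darkness and −3.17 in light on the log2 scale, an interaction of 8.18 (SE 0.59, edgeR adjusted p = 9.42e-10). It had 51.8, 45.6 and 79.1 CPM in the mutant in darkness with methionine, against 1.99, 1.55 and 1.03 in darkness, and 0.24, 0.11 and 0.06 in light with methionine, against 0.67, 1.07 and 1.85 in light. For TrF0388W the fitted interaction was 12.36 and is no bound, since light with methionine held no count. TrF0389C gave 4.07. Further named members positive past the threshold were TrB1796W (3.06), TrD1407W (2.93), TrF0363W (2.2) and TrG0504W (0.53). Of these the calls of TrB1796W and TrG0504W depended on single libraries, as described below.

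In light 4 members were lower with methionine in the mutant, against 34.3% of all models: TrF0387C, TrF0388W, TrF0411C and TrG0184C, the last 2 named after their values were seen. With only the libraries of light and of light with methionine fitted, 2 were lower, TrF0387C and TrF0411C, and the other 2 had too few counts to be tested. TrF0411C (TRIREDRAFT_103108) had 25.5 ± 4.99 CPM in light with methionine and 34.7 ± 4.04 in light, and 127 ± 27.1 in darkness with methionine against 8.40 ± 0.901 in darkness. Its response was 3.65 in darkness and −0.62 in light (log2). TrG0184C had 0.0394 ± 0.0682 CPM in light with methionine and 0.303 ± 0.303 in light. Without methionine 3 members were lower in darkness than in light in the mutant, against 31.8% of all models, TrF0411C (−1.97), TrF0033C (−3.28) and TrB1374C (−2.58), also named after their values were seen.

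The 5 members with a negative interaction had a larger fitted response to methionine in light than in darkness. They were TrA2098C (−5.85), TrG0976W (−4.19), TrD1281C (−4.02), TrC0226C (−3.25) and TrB0026C (−3.13), the last 3 named after their values were seen. TrG0976W went up by a log2 fold change of 6.06 with methionine in darkness and 10.25 in light, starting there from 4 counts in 3 libraries. TrD1281C and TrB0026C had 0 and 1 counts in light, so their fitted values rest on almost no counts. TrA2098C and TrC0226C had 8 and 10 counts there, so their folds in light are also poorly measured. Each of the 5 was nevertheless highest in darkness with methionine in the mutant.

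**Figure D4:**
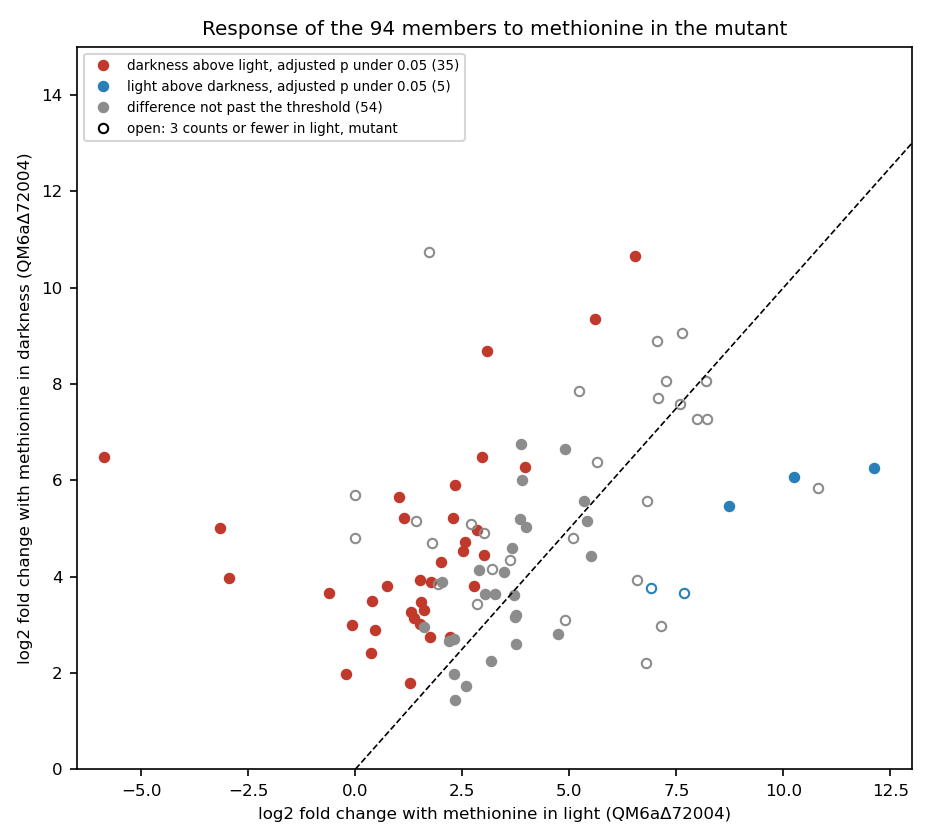
Each point is 1 of the 94 members in the mutant, with the log2 fold change with methionine in light on the x axis and in darkness on the y axis; the dashed line marks equal responses and open points have 3 counts or fewer in light. The 35 members in red have a larger response in darkness and the 5 in blue a larger one in light, and the lowest of the 94 lies at 1.43 on the y axis.

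Most members were also higher with methionine in light, and higher in the dark libraries than in the light libraries without methionine. In the mutant 77 of 94 were higher in light with methionine than in light, against 37.4% of all models, with a median log2 fold change of 3.01 (0.03 for all models). In the mutant libraries without methionine 62 were higher in darkness than in light, against 30.6% of all models. The median log2 fold change of the members was 2.41 there (−0.02 for all models). These contrasts share the 3 mutant libraries from light. The count filter used all 24 libraries, so members with few counts in these groups were tested through their counts in darkness with methionine. With only the groups compared fitted, 71 of the 81 calls for methionine in light were kept, higher and lower together. For darkness against light 54 of 65 were kept.

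The group in second place divides the set. In the wild type light with methionine came second for 49 members, darkness for 41 and light for 4. In the mutant light with methionine came second for 60, darkness for 33 and light for 1, and 79 members had the same second place in both genotypes. Of the 15 that differed, 10 had darkness second in the wild type and light with methionine second in the mutant. The 4 with light second in the wild type were TrB1796W, TrB1808W, TrF0411C and TrF1031C, and TrF0411C alone kept that order in the mutant. TrB1796W (TRIREDRAFT_70491) had 4.02, 4.06 and 20.6 CPM in the wild type in light, the highest in replicate 3, the library that stood apart.

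TrB1796W also shows how 1 library can carry a value in the mutant. It had 35.2, 38.7 and 35 CPM in darkness with methionine, against 2.04, 2.05 and 2.42 in darkness, 0.62, 5.21 and 0.17 in light, and 6.93, 1.60 and 2.07 in light with methionine. Darkness with methionine was clear of all other libraries, but both light groups were uneven. Its interaction of 3.06 (SE 1.06, edgeR adjusted p = 0.0234) was lost without replicate 2 of the mutant in light (0.87) and without replicate 2 in light with methionine (2.70). The smaller interaction of TrG0504W (0.53) was lost without replicate 2 in darkness with methionine (0.48), replicate 2 in darkness (0.43), replicate 1 in light with methionine (0.45) or replicate 3 in light (0.42).

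The 11 members that missed the rule in the mutant were all still highest in darkness with methionine. They were TrA2098C, TrB0078C, TrB0132W, TrB1882C, TrC0035W, TrC0226C, TrD1400C, TrF0033C, TrF0411C, TrF0452W and TrG0792W, of which only TrA2098C, TrC0035W and TrF0452W were named by rule. Their ratios to the next group in the mutant ran from 2.44 for TrF0033C to 3.82 for TrB1882C. TrC0226C had 249 ± 29.2 CPM in darkness with methionine, against 89.1 ± 8.48 in light with methionine. TrF0033C had 15.3 ± 3.23 CPM, against 5.99 ± 2.29.

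Of the 18 models that met the rule in the mutant alone, 4 are described here after their values were seen. TrC0021C (coding length 2133) had 11.2 CPM in the mutant and 8.21 in the wild type in darkness with methionine, under the minimum, and at most 0.0425 CPM in any other group. It stands next to the run of TrC0019C and TrC0020W. TrA1389W had 12.1 CPM in the mutant and 8.11 in the wild type, and TrB0803C had 11 and 8.89. TrA1948C was kept out of the set by its mean in wild type light. It had a mean of 0.283 CPM in the mutant and 61.4 in the wild type there. In darkness with methionine it had 92.7 and 75.1 CPM. The mean of wild type light includes replicate 3, the library that stood apart, and the difference between the genotypes was not tested.

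Between the genotypes the members stood at nearly the same level in darkness with methionine. The ratio of the mutant mean to the wild type mean had a median of 1 over the 94 members, from 0.608 to 1.69, with 47 above 1 and 47 below. Because these wild type values chose the members, the ratios are a description. Libraries of mutant and wild type with the same replicate number deviated together in this condition, with correlations of their residuals across models of 0.369, 0.136 and 0.475. Set side by side by number, the mutant was above the wild type in all 3 pairs for 24 members, against 18.1% of the tested models, and below in all 3 for 22, against 23.5%, a count made after the values were seen. TrD1406C and TrD1407W were among the 22. Without regard to number, the libraries of mutant and wild type overlapped in 87 members. All 3 mutant libraries were above all 3 wild type libraries for 4 members, TrB0175C, TrB1706W, TrF0359C and TrG0024W, against 6.67% of the tested models, and below for 3, TrB1882C, TrD1400C and TrG0184C, against 9.01%. TrB0175C had 33.4, 31.7 and 43.7 CPM in the mutant and 18.3, 22.3 and 27.5 in the wild type.

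**Figure D5:**
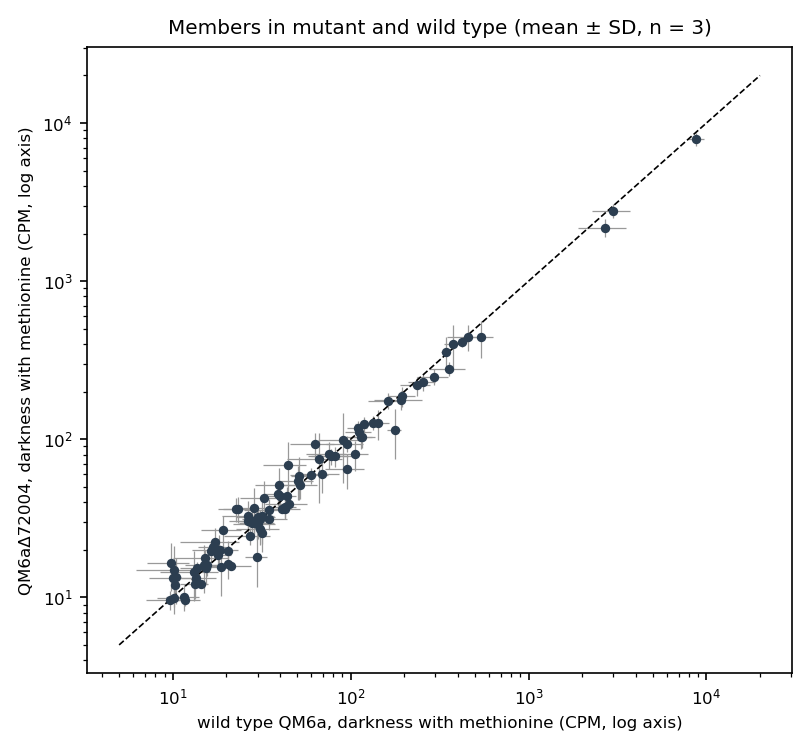
Each point is 1 of the 94 members, with its mean CPM in darkness with methionine in the wild type on the x axis and in the mutant on the y axis, both log axes, and bars for the SD of 3 libraries; the dashed line marks equality. The points follow the line from 9.62 to 8775 CPM in the wild type, with mutant to wild type ratios of 0.608 to 1.69.

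In several groups the members varied together between libraries. In darkness with methionine replicate 1 was the lowest library for 80 of 94 members in the mutant and for 82 in the wild type. Among all tested models it was the lowest for 50% in the mutant and 46.9% in the wild type. Replicate 3 was the highest for 73 members in the mutant, or 77.7%, against 49.8% of all tested models. In the wild type it was the highest for 45 members, or 47.9%, near the 46.6% of all tested models. In the wild type in darkness replicate 2 was the highest for 62 members, or 66.0%, where 33.9% of all models were, and in light replicate 3 was the highest for 53, or 56.4%, against 34.2%. It was less marked in the mutant in light with methionine. There replicate 3 was the lowest for 41.5% of members, against 39.9% of all tested models. Replicate 2 was the highest for 46.8%, against 35.5%. The part of these library differences in the levels was not tested. Within darkness with methionine the coefficient of variation of the members had a median of 16.8% in the mutant (2.38 to 47.2) and 20.5% in the wild type (0.383 to 38.7).

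In structure the members resembled other models. Their median coding length was 1179 bases (222 to 3669), against 1113 over all models, and their median number of exons was 2 in both. Models of 1 exon made up 21.3% of members and 20.5% of all models. By position they lay more often towards contig ends: 10 members, or 10.6%, were within 100 kb of an end, against 4.04% of all models, and 38, or 40.4%, within 500 kb, against 21.2%, a distance chosen after the values were seen. The share of models that were members was 1.65% on unitig_5_consensus, with 20 members, and 0.558% on unitig_0_consensus, with 12. The distances to an end ran from the middle of a model to the start of the contig or to the end of its last model. Contig lengths were not used. No test was made of these positions.

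At the edge of the rule the members just inside the fold threshold were TrC0035W, with a wild type ratio of 4.02, TrF0452W with 4.05 and TrB1796W with 4.14. Just outside were TrB0254W with 3.95, TrC1371W with 3.90 and TrE0425W with 3.87. In the mutant these ratios were 3.12, 3.23 and 9.14 for the 3 inside and 2.75, 3.08 and 3.32 for the 3 outside.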

How the data were processed

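The values used are raw counts for each gene model as deposited; per the file headers, featureCounts 2.0.1 counted read pairs in its reverse stranded setting. The submitters' processing notes name HISAT2 2.2.1. No source used here gives the genome build, and coordinates are those of the table. RNA was depleted of ribosomal RNA and made into stranded libraries, per the labels' protocols. Coding length is the authors' summed exon length, a multiple of 3 for 94.7% of models.

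CPM is the count over the library total. Tests used edgeR 4.0.16 in R 4.3.3: TMM (factors 0.877 to 1.11), its filter (minimum count 10), a one-factor model of the 8 groups and a threshold of 0.05. SE is the log2 fold change over the root of F. A floor of 3 counts over a group gave lower bounds. The code was tested on simulated data. DESeq2 1.42.0, other scalings, filters and sample sets, and leaving out libraries were the alternatives.

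Models were linked to locus tags by identical span and at least 3 equal spans among 6 neighbours on each side (4012 of 10879, and 0 in each of 20 decoy tables). The reference table holds no product names, so the planned lists by product words could not be applied and sequences are not shown.

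The members and lists were chosen with earlier results of these data known. Named members are the 8 most abundant in the wild type, the 8 with the highest mutant ratio, the 4 longest runs and those next to the threshold. No member failed a mutant contrast and none had a product name, so 2 further parts of the rule named none. Same-numbered mutant libraries of different conditions had residual correlations of −0.185 to 0.199 (18 pairs) and 0 of 6 pairs of groups had all 3 over 0.1, so numbers were not taken to pair them. In darkness with methionine every correlation between same-numbered mutant and wild type libraries was over 0.1, so these were also compared by number.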

Additional observations from a re-analysis of the deposited data

Results flagged for a closer look

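The response of some members to methionine differed between darkness and light in the mutant by the edgeR interaction test, which drew attention to these results. The interaction was positive, a larger response in darkness, for 35 of 94 members, against 23.3% of all tested models. It was negative, a larger response in light, for 5, against 22.4%, and the other 54 did not pass. Among members named in the report the interaction, a difference of log2 fold changes, was 12.36 for TrF0388W, 8.18 for TrF0387C, 4.07 for TrF0389C, 3.06 for TrB1796W, 2.93 for TrD1407W, 2.2 for TrF0363W and 0.53 for TrG0504W. It was −4.19 for TrG0976W and −5.85 for TrA2098C, which had only 4 and 8 counts in light in the mutant. Single libraries were not tested for lying far from their group, since each group holds 3.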

How the results depend on the processing

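With a fold threshold of 8 the rule took 45 models, and with TMM-scaled CPM 83, all of them members. Leaving out each wild type library gave 87 to 106 members, the most without replicate 1 in darkness with methionine, and leaving out each mutant library gave 77 to 85 members meeting the rule in the mutant. The 94 higher calls against darkness and against light were kept under every alternative run, and against light with methionine 93 to 94 without single libraries and 92 with DESeq2, where TrA2098C and TrC0226C did not pass. The negative interactions numbered 10 with only the 12 mutant samples or only the groups compared and 9 with DESeq2; without single libraries there were 26 to 35 positive and 4 to 6 negative ones. With only the groups compared fewer models passed the count filter. There 54 of 65 calls between darkness and light and 71 of 81 for methionine in light were kept. Members lower with methionine in light then numbered 2. Without single libraries 73 to 76 were higher and 3 to 4 lower, and between darkness and light 59 to 64 were higher and 2 to 3 lower. With the replicate block, whose numbers do not pair the samples, the 3 contrasts kept 94 higher calls each, and the interaction had 34 positive and 6 negative calls. No alternative reversed a named member. With 3 libraries a group and few counts in light, the response to methionine in light is the least precise value.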
